A study of Mus musculus with 10 samples.

Results

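Expression of 10 genes for PIWI proteins, germ cell helicases and piRNA factors was followed in testis that lacks Crem. Crem encodes a transcriptional regulator that answers to cAMP and is most active in round spermatids. The 10 genes were the PIWI genes Piwil1, Piwil2 and Piwil4, the germ cell helicase genes Ddx4, Ddx25 and Mov10l1, and Mael, Asz1, Gtsf1 and Pld6. They were chosen by function, each through an array feature annotated with that symbol alone, and all 10 were found, with 1 feature each, among 19661 genes. The arrays (Affymetrix Mouse Gene ST) each carried whole testis RNA of a single mouse, 5 of them wild-type (WT) and the other 5 Crem-/- (KO). Mice of either genotype were untreated, of a mixed 129Pas x C57Bl/J strain and 8 weeks old, and were killed at 0 h circadian time. The KO mice lack Crem in every tissue, and the study states that their sperm development stops at round spermatids. Whole testis RNA therefore comes from a changed mixture of cells, in which fewer cells of a type and less RNA per cell cannot be told apart.

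The piRNA pathway protects the germ line from transposons. PIWI proteins carry small RNAs, the piRNAs, which guide them to matching transcripts that are then cut or silenced. The precursors are processed at mitochondria and in granules of the cytoplasm, which in spermatids gather into the chromatoid body. In the mouse testis the pathway is known for its large output of piRNAs in pachytene spermatocytes, under the transcription factor MYBL1, and male mice that lack its main genes are sterile.

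Levels are log2 values of the RMA method as deposited, and a change is the KO mean minus the WT mean on that scale, with its standard error (SE) from limma. A gene counted as called where its adjusted p was below 0.05 (limma, Benjamini-Hochberg over all features). The medians of the 10 arrays lay between 7.11 and 7.15, no pair of arrays was identical, and Pearson's r across features was at least 0.9919 within a genotype and at most 0.9519 between genotypes. Crem was measured at 10.89 to 11.04 in WT and at 9.01 to 9.41 in KO. The labels give 4 batches. Batch 2 held 3 WT arrays and KO replicate 3, batch 4 held WT replicate 5 and KO replicates 1, 4 and 5, and batches 1 and 3 held 1 array each, KO replicate 2 and WT replicate 4. The labels name separate mice, so the spread is that between animals. RNA integrity numbers, which the study lists for part of its adult mice, were all slightly higher in KO than in WT. Their part in the changes was not tested.

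Of the 10 genes, 6 were higher in KO (60%) and none was lower, where 31.1% of all genes were called higher and 13.2% lower (44.3% in either direction). With arrays centred on housekeeping genes 3 were higher and 1 (Gtsf1) was lower, against 14.4% and 19.3% of all genes. The median change was then 0.12, against −0.049 over all genes. With B2m left out of that centring 6 were higher, against 27.2% of all genes. Within batches 2 and 4 alone, where 1 group is a single array, the median change was 0.26 and 0.26. Over the deposited values the 6 were Ddx4, Asz1, Ddx25, Piwil2, Piwil1 and Mael. Their rises were small, from 0.23 to 0.40 in log2 or 1.17- to 1.32-fold. The median change of the 10 genes was 0.24, against 0.07 over all genes. In 5 of the 10 every KO array lay above every WT array, as it did in 22.0% of all genes. Gtsf1, Pld6, Piwil4 and Mov10l1 did not pass the test.

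**Figure D1:**
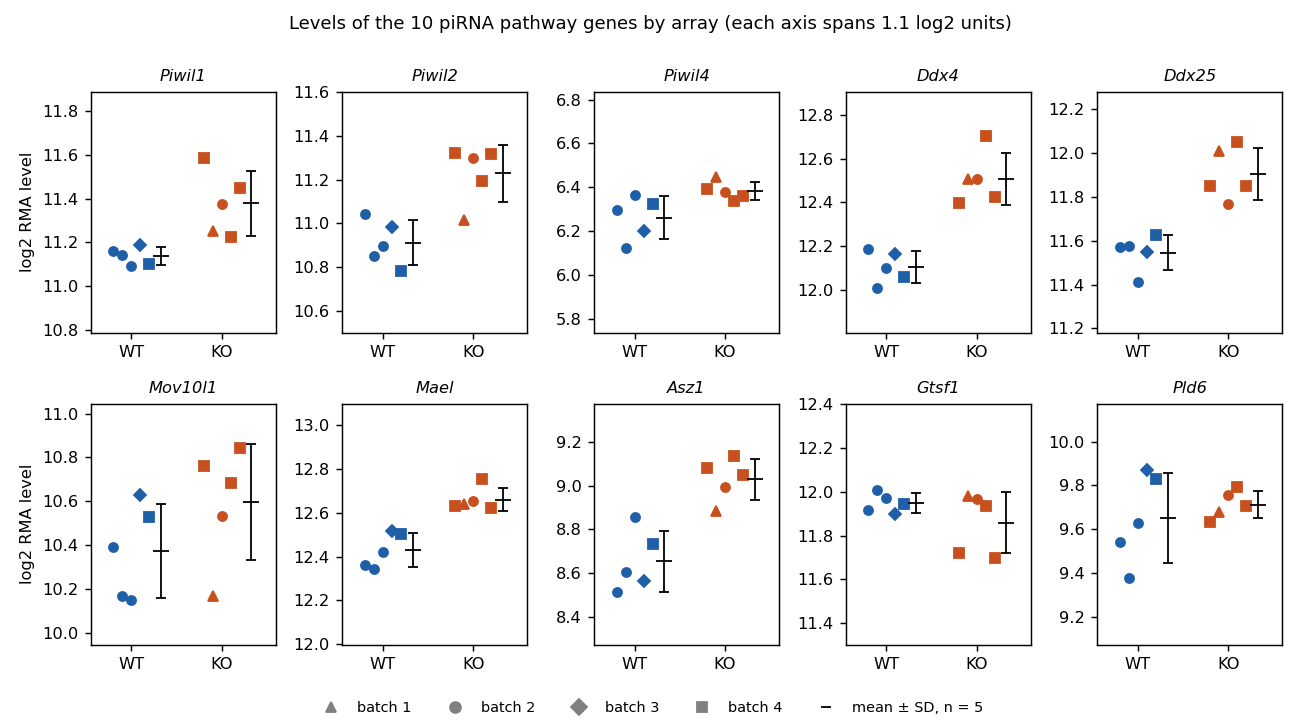
Log2 RMA level (vertical axis, each spanning the same range) of the 10 genes on each array, WT and KO side by side; point shapes show the batch, and the bar next to a group is its mean ± SD (n = 5). The groups are apart in Piwil1, Ddx4, Ddx25, Mael and Asz1 and overlap in the other genes, and among the KO arrays Mov10l1 is lowest in that of batch 1.

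Promoter windows are shown because several of these genes rose together while Gtsf1l, a relative of Gtsf1, fell by 4.78 in log2. Windows of 300 bases, from 250 before to 50 after the start of the gene, were taken from RefSeq (GRCm38.p6) for 9 of the 10 genes, 11 windows in all, and none was found for Piwil2. CREM binds the cAMP response element TGACGTCA, and its core TGACG, which the whole element contains, was searched as well, each on both strands. The whole element was in none of the windows of the 10 genes and in 1.79% of 32851 windows of all genes. At so low a share its absence from 11 windows tells little. The study reports that most of the changed genes bound by CREM lacked the whole element in their promoters. Among the 10 genes the core was in the window of Ddx4, 59 bases before the start, and it was in 20.8% of all windows. Among their relatives, of which Ago2 had no window, the CRE core was in the windows of Ddx3x, Ago3 and Ago4. A core of MYB sites, TAACNG, was on either strand in the windows of Piwil1, Mov10l1 and Mael and in 23.3% of all windows. Among the relatives the MYB core was in the window of Ddx3x. The windows of Gtsf1 and Gtsf1l held none of these letters. In the sequences, 5′ to 3′ on the strand of the gene, capitals mark the CRE core in Ddx4 and the MYB core in the others.
Ddx4, chr13:112652261-112652560, minus strand: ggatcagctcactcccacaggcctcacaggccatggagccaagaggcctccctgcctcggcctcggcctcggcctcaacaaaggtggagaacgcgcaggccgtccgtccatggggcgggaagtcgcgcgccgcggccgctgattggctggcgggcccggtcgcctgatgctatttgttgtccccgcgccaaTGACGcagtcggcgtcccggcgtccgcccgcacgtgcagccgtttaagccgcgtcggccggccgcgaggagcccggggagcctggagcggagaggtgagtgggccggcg
Piwil1, chr5:128735996-128736295, plus strand: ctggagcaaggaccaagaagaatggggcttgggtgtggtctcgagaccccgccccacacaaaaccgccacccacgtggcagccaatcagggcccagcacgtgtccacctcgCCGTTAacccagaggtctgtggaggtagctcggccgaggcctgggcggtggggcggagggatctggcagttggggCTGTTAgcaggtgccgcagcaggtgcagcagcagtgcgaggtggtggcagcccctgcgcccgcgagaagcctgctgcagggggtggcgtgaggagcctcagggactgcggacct
Mael, chr1:166238695-166238994, minus strand: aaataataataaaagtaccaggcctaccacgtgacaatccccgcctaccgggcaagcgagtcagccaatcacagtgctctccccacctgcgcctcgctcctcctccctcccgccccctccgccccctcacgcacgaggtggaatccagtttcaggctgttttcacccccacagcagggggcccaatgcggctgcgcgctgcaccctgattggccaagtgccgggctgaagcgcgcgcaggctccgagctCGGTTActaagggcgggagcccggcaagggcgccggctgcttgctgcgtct
Gtsf1, chr15:103430378-103430677, minus strand: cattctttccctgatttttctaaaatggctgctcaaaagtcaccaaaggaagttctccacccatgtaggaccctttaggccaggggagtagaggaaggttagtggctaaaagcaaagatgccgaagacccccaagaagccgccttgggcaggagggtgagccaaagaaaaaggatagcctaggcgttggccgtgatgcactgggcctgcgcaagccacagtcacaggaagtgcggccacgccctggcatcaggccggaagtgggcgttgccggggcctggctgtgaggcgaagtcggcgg
Gtsf1l, chr2:163089552-163089851, minus strand: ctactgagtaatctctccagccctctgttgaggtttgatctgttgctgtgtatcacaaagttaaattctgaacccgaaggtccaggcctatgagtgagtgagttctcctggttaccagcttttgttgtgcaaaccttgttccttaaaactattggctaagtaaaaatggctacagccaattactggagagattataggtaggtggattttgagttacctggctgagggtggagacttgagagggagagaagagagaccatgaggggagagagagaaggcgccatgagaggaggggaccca
A match in letters is a description of the window and does not show binding, and the lack of a match does not show that binding is absent.

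Among the PIWI genes, Piwil1 encodes the protein known as MIWI, which carries pachytene piRNAs in spermatocytes and round spermatids. Its level was 11.16, 11.14, 11.09, 11.19 and 11.10 in WT replicates 1 to 5 and 11.59, 11.25, 11.38, 11.23 and 11.45 in KO replicates 1 to 5. The groups did not overlap, but KO replicates 2 and 4 were within 0.1 of the highest WT array, and the KO spread was wider, with an SD of 0.15 against 0.04 (n = 5 each). The change was 0.24 ± 0.07 (SE, limma adjusted p = 0.0154).

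Piwil2 encodes MILI, which is present from fetal germ cells to round spermatids. Its level was 11.04, 10.85, 10.90, 10.98 and 10.78 in the WT arrays and 11.32, 11.02, 11.30, 11.19 and 11.32 in the KO arrays. KO replicate 2 lay just below WT replicate 1, and the other KO arrays lay above all WT arrays. The change was 0.32 ± 0.07 (SE, limma adjusted p = 0.00385), and the call was lost with the housekeeping centring, at 0.20 (limma adjusted p = 0.0899). The change was 0.37 within batch 2 alone, with 1 KO array, and 0.49 within batch 4 alone, with 1 WT array. That array, WT replicate 5, was the lowest WT array for Piwil2, at 10.78.

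Piwil4 encodes MIWI2, which is known from fetal prospermatogonia and guides DNA methylation of transposons there. It was measured at 6.12 to 6.36 in WT and at 6.34 to 6.45 in KO, below the median of every array. Its change of 0.12 ± 0.06 (SE) was not called (limma adjusted p = 0.126). The changes of Piwil1 and Piwil2 differed by −0.08, with a 95% interval of limma of −0.27 to 0.11. The exact permutation test (two-sided) gave this pair an adjusted p of 0.397 over 45 pairs of genes.

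Of the helicase genes, Ddx4 (mouse VASA) marks germ cells and builds the germ granules. It had the largest change of the 10 genes over all arrays without batch, while Piwil2 was higher with batch as a fixed block (0.430 against 0.428) and Asz1 without KO replicates 2 and 3 (0.434 against 0.405). Its level was 12.19, 12.01, 12.10, 12.17 and 12.06 in the WT arrays and 12.40, 12.51, 12.51, 12.70 and 12.43 in the KO arrays. Every KO array was higher than every WT array by at least 0.2, and the change was 0.40 ± 0.07 (SE, limma adjusted p = 0.000325). The 3 genes whose levels, each taken relative to its own WT mean, ran closest to those of Ddx4 over the 10 arrays were Psmb7, Enpp4 and Dnttip1, with root mean square differences of 0.0549, 0.0603 and 0.0675 log2 units.

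Ddx25 encodes a helicase known from spermatocytes and round spermatids, where it takes part in export and storage of mRNA for sperm formation. It stood at 11.57, 11.58, 11.41, 11.55 and 11.62 in the WT arrays and at 11.85, 12.01, 11.77, 12.05 and 11.85 in the KO arrays. The groups were apart, and the change was 0.36 ± 0.07 (SE, limma adjusted p = 0.000905). Within batch 2 and batch 4 it was 0.25 and 0.29.

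Mov10l1 encodes the helicase that feeds precursor transcripts into piRNA processing. Its level was 10.39, 10.17, 10.15, 10.63 and 10.53 in the WT arrays and 10.76, 10.17, 10.53, 10.68 and 10.84 in the KO arrays. Both groups were wide, with an SD of 0.21 in WT and 0.27 in KO, and KO replicate 2, the only array of batch 1, was as low as the lowest WT arrays. The change of 0.22 ± 0.13 (SE) was not called (limma adjusted p = 0.190). One array decided this: without KO replicate 2 the change was 0.33 and was called (limma adjusted p = 0.0244). With batch as a block the change was 0.27 and was also called (limma adjusted p = 0.0381). That fit is not separate evidence, since it takes the change from batches 2 and 4 only. It thus leaves out KO replicate 2 as well, and WT replicate 4, the highest WT array.

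Mael encodes a germ granule protein needed to repress transposons in spermatocytes. Its level was 12.36, 12.35, 12.42, 12.51 and 12.50 in the WT arrays and 12.63, 12.64, 12.66, 12.75 and 12.62 in the KO arrays. The groups were apart and narrow, with a change of 0.23 ± 0.06 (SE, limma adjusted p = 0.00565).

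Asz1 encodes a scaffold of the outer mitochondrial membrane where piRNA precursors are cut. It was measured at 8.51, 8.61, 8.85, 8.56 and 8.73 in WT and at 9.08, 8.89, 8.99, 9.14 and 9.05 in KO. The lowest KO array, replicate 2, lay above the highest WT array, replicate 3, by less than 0.1. The change was 0.37 ± 0.08 (SE, limma adjusted p = 0.00132).

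Pld6 encodes a nuclease of the same membrane that makes the 5′ ends of piRNAs. It ranged from 9.38 to 9.87 in WT and from 9.63 to 9.79 in KO, so that all KO arrays lay inside the WT range. Its change of 0.06 ± 0.09 (SE, limma adjusted p = 0.627) was 0.24 in batch 2 and −0.12 in batch 4.

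Gtsf1 encodes a zinc finger protein that binds PIWI proteins and helps them cut their targets. Its level was 11.92, 12.01, 11.97, 11.90 and 11.94 in the WT arrays and 11.72, 11.98, 11.97, 11.93 and 11.70 in the KO arrays. KO replicates 1 and 5 were below all WT arrays, and the other KO arrays lay within the WT range. The change was −0.09 ± 0.07 (SE, limma adjusted p = 0.344), the single negative value among the 10 genes.

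The 10 genes were also compared with each other, through the difference of their levels on each array. In 45 pairs the exact permutation test (two-sided), whose smallest possible p is 0.00794, gave 15 pairs at an unadjusted p under 0.05 and none after adjustment (lowest adjusted p = 0.051). By limma on the same differences, chosen after the data were seen, 10 pairs were called, 6 of them with Gtsf1 as a partner. Limma shares variance across the 45 pairs, which reuse 10 genes of the same arrays. Its p-values may thus be too small and its intervals too narrow. The change of Ddx4 exceeded that of Gtsf1 by 0.49 (95% interval 0.30 to 0.69; limma adjusted p = 0.000948 over the 45 pairs). Ddx4 and Ddx25 differed by 0.04 (95% interval −0.15 to 0.24). The exact test called 9 pairs without KO replicate 2.

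The array of batch 1, KO replicate 2, was the lowest KO array in Piwil2, Mov10l1 and Asz1, and KO replicate 4 was the highest in 5 of the 10 genes. The mean level of the 10 genes was 10.42 to 10.56 in the WT arrays and 10.66 to 10.78 in the KO arrays. The SD within a group lay between 0.04 and 0.27, and it was larger in KO in 6 of the 10 genes.

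Of 21 other genes listed for the pathway, 18 were measured, and 12 of these were called higher (66.7%) and 1 lower, against 31.1% and 13.2% of all genes, with a median change of 0.28. With the housekeeping centring 3 were higher (14.4% of all genes). Within batch 2 alone, with a single KO array, the median change of the 18 genes was 0.27. Tdrd7, a Tudor domain gene of the chromatoid body, had the largest change. Its level was 11.30 to 11.40 in WT and 12.09 to 12.20 in KO, a rise of 0.81 ± 0.05 (SE, limma adjusted p = 2.6e-08). Tdrkh, whose protein takes part in trimming of piRNAs at mitochondria, rose by 0.39 ± 0.08 and Tdrd12 by 0.38 ± 0.07 (SE). Dnmt3l, a cofactor of DNA methylation in fetal germ cells, fell from a mean of 6.22 in WT to 5.78 in KO. Both means lie below the median of every array. Every KO array was below every WT array (10.7% of all genes did so), and the fall was 0.43 ± 0.09 on the log2 scale (SE, limma adjusted p = 0.00156). Within batches 2 and 4 alone the change of Dnmt3l was −0.28 and −0.32. The other genes of the list lay between −0.17 and 0.35.

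**Figure D2:**
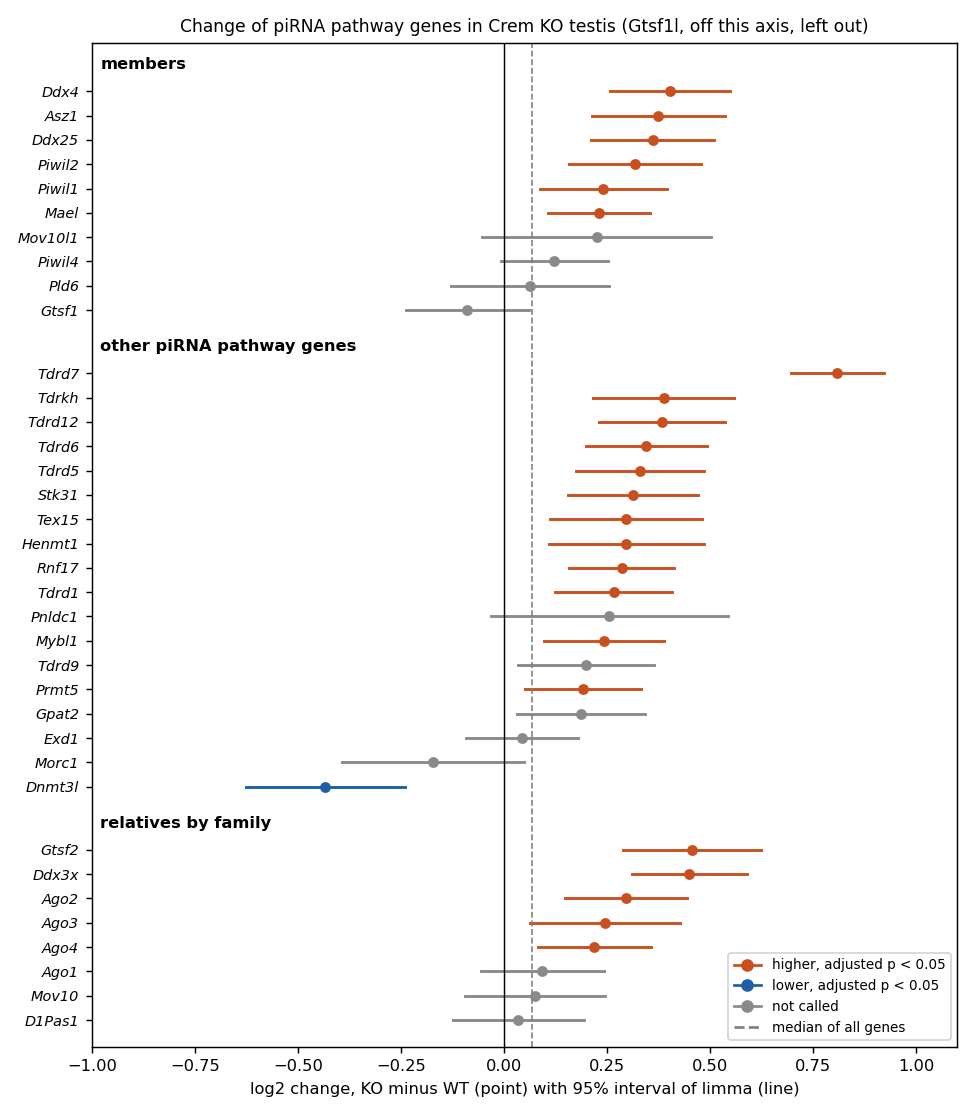
Log2 change, KO minus WT (horizontal axis), of the 10 genes, of 18 other genes of the pathway and of their relatives, with 95% intervals of limma and the median of all genes as a dashed line; Gtsf1l, at −4.78, is off the axis. Most pathway genes lie to the right of the dashed line, with Tdrd7 at 0.81, while Gtsf1, Pld6, Exd1, Morc1 and Dnmt3l lie to its left.

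Relatives of the 10 genes did not all follow them. Of 9 relatives by protein family, 5 were called higher (55.6%) and 1 lower, against 31.1% and 13.2% of all genes. The higher count was 2 with the housekeeping centring, against 14.4% of all genes, and 3 with batch as a fixed block, against 26.3%. Gtsf1l, a relative of Gtsf1 expressed in testis, was measured at 11.11, 11.49, 11.08, 11.33 and 11.25 in WT replicates 1 to 5 and at 6.35, 7.07, 7.33, 5.81 and 5.80 in KO replicates 1 to 5. The lowest WT array was above the highest KO array by more than 3 log2 units, and KO replicates 2 and 3, of batches 1 and 2, kept the most signal. This is a 27.5-fold fall, or −4.78 ± 0.26 in log2 (SE, limma adjusted p = 3.6e-09), and it was −3.90 within batch 2 and −5.26 within batch 4. The same KO replicates 2 and 3 had the highest mean level of the 11 elongating spermatid markers among the KO arrays, at 9.77 each against 7.91 to 8.81 in the others, and the part of this in the change was not tested. Gtsf2, a further relative that lies on chromosome 15 like Gtsf1, rose from 10.13 to 10.45 in WT to 10.62 to 10.90 in KO, by 0.46 ± 0.08 (SE, limma adjusted p = 0.000358). Within this family of 3 genes, Gtsf1l thus fell, Gtsf2 rose and Gtsf1 stood at −0.09.

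**Figure D3:**
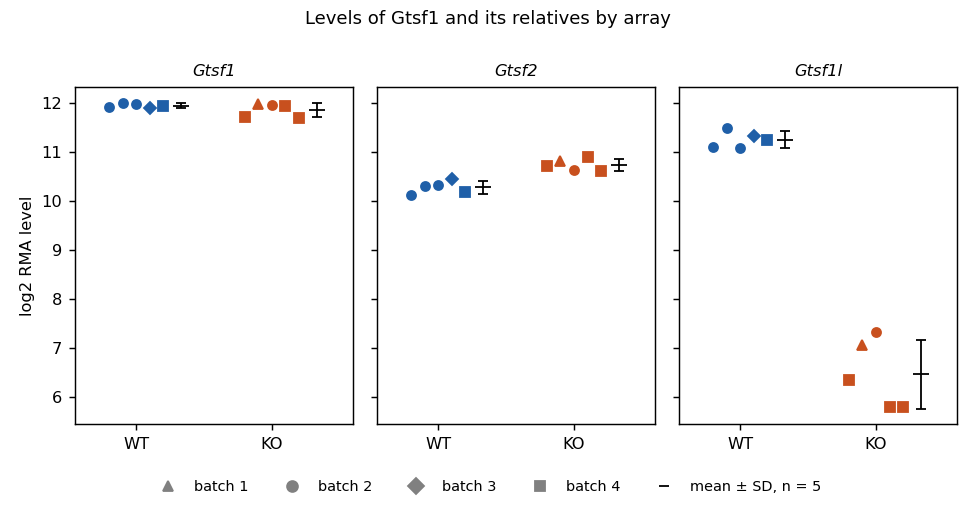
Log2 RMA level (vertical axis, shared) of Gtsf1, Gtsf2 and Gtsf1l on each WT and KO array, with a point shape per batch and a bar for the group mean ± SD (n = 5). Gtsf1l drops from 11.25 to 6.47, whereas the means of Gtsf1 and Gtsf2 change by −0.09 and 0.46.

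Ddx3x, an X-linked helicase gene related to Ddx4, rose by 0.45 ± 0.06 (SE, limma adjusted p = 9.2e-05). Its testis copy D1Pas1, which is close to it in sequence so that probe signal may be shared, stood at 0.03 ± 0.07 (SE, limma adjusted p = 0.755). Among the Argonaute genes, which carry microRNAs in all tissues, Ago2 rose by 0.30 ± 0.07 (SE, limma adjusted p = 0.00346), and Ago3 and Ago4 were called higher by 0.25 and 0.22. None of the 3 was called with the housekeeping centring, and Ago2 was not called with batch as a fixed block either (limma adjusted p = 0.061). Ago1 (0.09) and Mov10 (0.08), the relative of Mov10l1 outside the germ line, were not called.

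Of 12 spermatocyte genes 8 rose and none fell, with a median of 0.27, and their summed signal on the linear scale was 13134 to 14293 in WT and 15854 to 17010 in KO. The largest change was in Meiob, at 0.82. All 11 genes of elongating spermatids fell, with a median of −5.19 and −5.52 for Prm1, and their summed signal was 92874 to 110112 in WT and 13511 to 20682 in KO. Rises were also found in 4 of 5 Leydig cell genes (Hsd17b3, 1.08) and 7 of 8 macrophage genes (Adgre1, 1.52), with no falls. In the Sertoli cell list 3 of 9 genes (33.3%) rose (Fshr, 0.35), near the 31.1% of all genes. Spermatogonial genes were also near it, with 3 rises and 1 fall of 10, with the largest change in Kit (0.47), and peritubular myoid genes gave 1 rise and 1 fall of 6, with the largest change in Actg2 (−0.63). The summed signals of WT and KO did not overlap for the Leydig, macrophage and Sertoli lists, at 7012 to 8497 and 9561 to 15386, 1451 to 1664 and 1940 to 2939, and 7329 to 8425 and 8919 to 11015. They overlapped for the spermatogonial list (2209 to 2708 and 2477 to 2817) and the myoid list (4427 to 5237 and 3846 to 4793). In the Sertoli list the mean log2 levels did overlap, at 8.43 to 8.59 in WT and 8.57 to 8.76 in KO. Its sum is weighted to Clu, the gene of highest level in that list (WT mean 12.33). The part of these shifts in the changes of the 10 genes was not tested.

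The 10 genes were set against the spermatocyte markers on the same array. The changes of the 12 markers ranged from 0.05 to 0.82, so the values below depend on which markers are used. Their mean level rose by 0.30, from 9.60 ± 0.08 in WT to 9.90 ± 0.07 in KO (SD, n = 5 each). Relative to it, the 6 called genes changed by −0.07 to 0.10, and their lowest adjusted p was 0.258, for Mael (exact permutation test, two-sided, over the 10 genes). Ddx4 stood at 0.10 with a 95% interval of −0.05 to 0.26 and Piwil1 at −0.06 with one of −0.22 to 0.10. Gtsf1 stood at −0.39 (95% interval −0.55 to −0.23), at the smallest p the test allows, 0.00794, and an adjusted p of 0.0794. Pld6 stood at −0.24 (95% interval −0.39 to −0.08; exact permutation p = 0.0317, adjusted p = 0.159). No gene passed the exact test after adjustment, with 2 at an unadjusted p under 0.05. Limma on the same differences called those 2 genes, Gtsf1 and Pld6 (limma adjusted p = 9.9e-05 and 0.0182). That fit, which also gave the 95% intervals, shares variance across the 10 genes as if they varied independently. They come from the same mice and have the same marker mean subtracted, so its p-values may be too small and its intervals too narrow.

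The number of calls differed between scalings. It was 6 with arrays centred on their median and 7 after quantile normalisation once more. With arrays centred on 8 measured housekeeping genes, 3 of the 10 genes were higher (Ddx4, Ddx25 and Asz1) and 1, Gtsf1, was lower at −0.21 (limma adjusted p = 0.0431), against 14.4% and 19.3% of all genes. Of these housekeeping genes 3 rose and 2 fell over the deposited values, B2m by 0.81, and without it the same 6 genes were called as over the deposited values. Piwil1, Piwil2 and Mael kept positive values of 0.12, 0.20 and 0.11 with B2m included but were not called. In batch 2 alone none of the 10 genes was called by limma, with 11.2% of all genes called higher, and in batch 4 alone 1 was, Piwil2, with 9.67%. The changes of the 6 genes within a batch were 0.16 to 0.49, all positive.

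**Figure D4:**
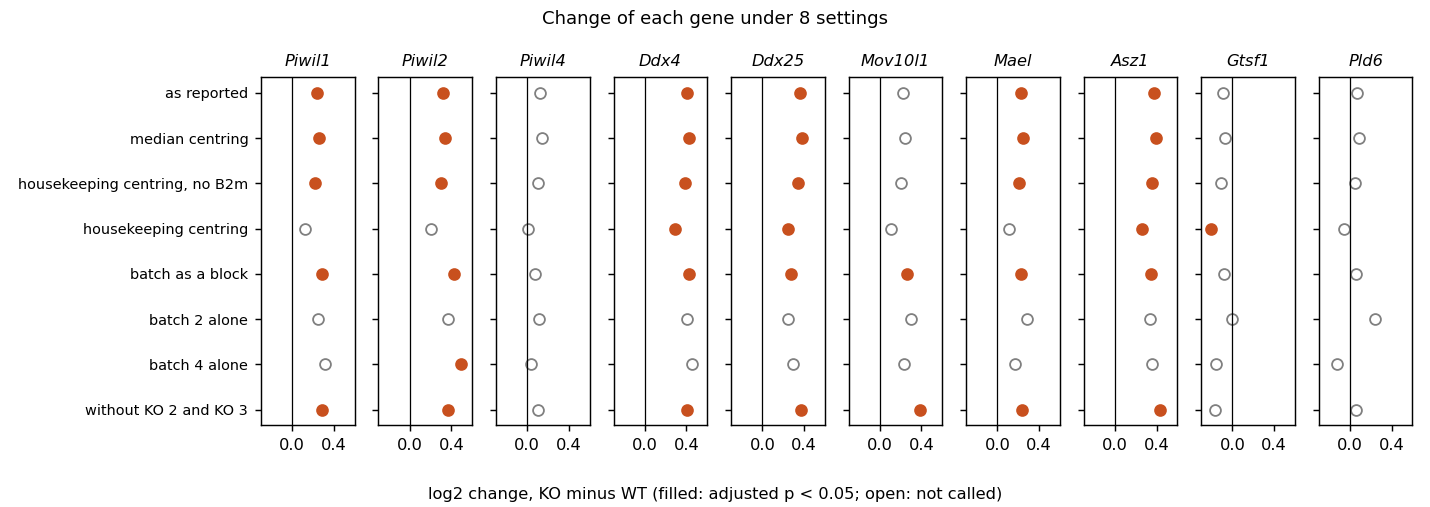
Log2 change, KO minus WT (horizontal axis), of each of the 10 genes over the deposited values, under 3 ways of centring the arrays, with batch as a block, within batches 2 and 4 and without KO replicates 2 and 3; filled points passed limma's adjusted p of 0.05. Ddx4, Ddx25 and Asz1 are called under every centring, and within a single batch only Piwil2 is called, in batch 4.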

How the data were processed

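Whole testis RNA of 10 mice was measured on Affymetrix Mouse Gene ST arrays. The authors deposited log2 levels, 1 per transcript, that they had obtained with RMA (R package XPS). Antigenomic probes had served to estimate background, and the core annotation to choose probe sets. Versions and the genome build are not given in the sources used here. Of 35557 features 9868 were empty in every array, and the other 25689 were used. Features with a single symbol in GEO's platform annotation were named, and symbols were updated through RefSeq (GRCm38.p6). Where several features named a gene, that of highest mean over the arrays stood for it. RMA averages the probes of a transcript, so isoforms cannot be told apart.

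The KO minus WT difference was fitted with limma 3.58.1 under R 4.3.3 (two-sided lmFit and eBayes without covariates, Benjamini-Hochberg over all features, threshold 0.05), and the fit was tested on simulated data. The number of arrays limits the precision, with a median SE of 0.0755 over genes. Pairs of genes and changes relative to spermatocyte markers were tested with exact permutation of arrays. Genes and lists were chosen with earlier results of these data known. Named were the 10 genes, Crem, in the pathway and relatives lists the 4 largest changes and any call downward, in each marker list the largest change, and the 3 genes nearest to Ddx4. Others were named after their values were seen. Alternatives were other scaling, batch as a fixed or random block, each of batches 2 and 4 alone, weighted arrays, robust eBayes with a trend, a filter that drops the dimmest 25% of features, averaging the features of each gene, the median of the spermatocyte markers, limma in place of the permutation test, each array left out in turn and KO replicates 2 and 3 left out.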

Additional observations from a re-analysis of the deposited data

Results flagged for a closer look

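The level of Mael in KO replicate 4, at 12.75, lay apart from the other KO arrays, the nearest of which was at 12.66. The gap was 0.726 of the range of the 5 KO arrays. Chance flags about 1 in 20 groups in this way, and 20 groups were looked at.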

How the results depend on the processing

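The count of higher genes among the 10 was 6 to 7 when each array was left out in turn. It was 7 with batch as a fixed block, against 26.3% of all genes. In batches 2 and 4 alone 1 group is a single array that is assumed to vary like the others, and the median change was 0.26 and 0.26. With the housekeeping centring 3 genes were higher and 1 was lower, against 14.4% and 19.3% of all genes, and the median change was 0.12. That centring moved the median of all genes from 0.07 to -0.049. For the other pathway genes it gave 3 higher and a median of 0.16, and for the relatives 2 higher and a median of 0.10. Of all genes 14.4% were higher with that centring. In batch 2 alone the median change was 0.27 for the pathway genes and 0.23 for the relatives. In batch 4 alone Tdrd7 and Dnmt3l changed by 0.86 and −0.32, and Gtsf2 and Gtsf1l by 0.55 and −5.26. Batch as a fixed block takes the change from batches 2 and 4 only, since batches 1 and 3 hold 1 array each. With it 2 pathway genes were lower (12.0% of all genes) and 3 relatives higher (26.3% of all genes). When each array was left out in turn, 11 to 14 pathway genes and 4 to 5 relatives were higher. Pairs that differed numbered 0 to 9 by the exact test, with 9 without KO replicate 2. By limma they numbered 10 without batch and 11 with batch as a block. Relative to spermatocyte markers limma called 2 genes without batch and 1 with it as a block. In both comparisons limma treats genes or pairs of the same arrays as independent, so its counts may be too high. The exact test relative to the markers called none in any left-out array. The cause of these differences was not tested. Piwil4 was called after quantile normalisation once more (0.16, limma adjusted p = 0.0207). No paired analysis was possible because the replicate numbers follow the order of deposition.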
